A study of Mus musculus with 15 samples.

Results

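The APOE condition was compared with kainic acid alone in the libraries whose names carry the letter L, 3 APOE_L libraries against 3 KA_L libraries of RNA sequencing from mouse brain. An entry of the expression table was included if at least 3 of these 6 libraries reached 1 TPM (transcript abundance scaled to transcript length and to a fixed total), which gave 10794 of 65964 entries. Of these, 8812 carried a gene symbol, 147 were Ensembl identifiers without one and 1835 were assembled loci without a name. Every library is labelled C57BL/6, a mouse strain, and is tied to a temporal lobe epilepsy model induced with kainic acid (KA). APOE_L libraries were labelled as given KA together with APOE, and KA_L libraries as given KA alone, so both received KA. What was done to APOE, what the letters L and H mean and how many animals stand behind a group are not given in the labels. The other groups used here were untreated CTRL_L, and APOE_H and KA_H, which repeat the contrast under the letter H, with 3 libraries each and 15 in all.

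Apolipoprotein E is the main protein of the lipoprotein particles that carry cholesterol and phospholipid between brain cells. Astrocytes make most of it in the healthy brain, and microglia, the resident macrophages of the brain, make it when activated. Kainic acid activates kainate-type glutamate receptors and is widely used in rodents to provoke prolonged seizures.

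Although the labels give brain as the tissue, the 6 libraries were dominated by microglial transcripts. All 18 microglia markers were at 1 TPM or more in each of the 6 libraries, and their summed level ran from 18194 to 20245 TPM in APOE_L and from 10869 to 18568 TPM in KA_L. The 20 astrocyte markers summed to 199 to 377 TPM in APOE_L and 204 to 496 TPM in KA_L. The astrocyte intermediate filament gene Gfap was listed at 0, 0.04 and 0 TPM in APOE_L and at 0 in every KA_L library. Of the 20, 3 (Gjb6, Ntsr2 and Mlc1) were listed at 0 in all 6, and 2 were at 1 TPM or more in all 6. The 20 neuron markers summed to 5.33, 243 and 2.74 TPM in APOE_L, with 242 TPM of the second value from Syp, and to 0.58, 0.22 and 3.85 TPM in KA_L; the vesicular transporter genes Slc17a7 and Slc32a1 were listed at 0 in all 6. In bulk RNA of this kind, fewer cells of a type and less RNA per cell cannot be told apart.

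Agreement between libraries was limited. Over the 10794 entries, Pearson's r of log2(TPM + 1) ran from 0.498 to 0.534 within APOE_L and from 0.451 to 0.489 within KA_L, a description across entries that share library and transcript length. Between the groups it ran from 0.516 to 0.556 for APOE_L libraries with KA_L replicate 2, and from 0.451 to 0.484 for APOE_L libraries with KA_L replicates 1 and 3, under every pair within APOE_L. In APOE_L, 2856 entries (26.5%) were under 1 TPM in one library and at 10 TPM or more in another of the same group, against 3131 (29.0%) in KA_L. KA_L replicate 3 stood apart on the first principal component (24.6% of the variance) and KA_L replicate 1 on the second (22.9%), while KA_L replicate 2 lay beside the 3 APOE_L libraries. Of 30 genes used by every cell, 25 were at 1 TPM or more in all 6 libraries and 3 were listed at 0 in at least 1, so an exact 0 is given here as a listed value and not as absence.

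Few differences passed the test. It was a limma fit on log2(TPM + 1) over all 15 libraries, with Benjamini-Hochberg adjustment over the 17505 entries that reached 1 TPM in 3 libraries or more. At an adjusted p under 0.05, 8 entries were called, or 0.0457% of those tested, and all 8 were among the 10794. Higher in APOE_L were 6 (0.0343%), Tmem147, H2-Aa, Psmb5, Churc1, Tmem11 and 1 assembled locus. Lower were 2 (0.0114%), Apoe and Gm37728. An unadjusted p under 0.05 was reached by 1373 entries (7.84%), of which 605 (3.46%) were higher in APOE_L and 768 (4.39%) lower. The median log2 fold change was -0.04 over all tested entries and -0.16 over the 10794, of which 4884 (45.2%) had a positive one, with a median standard error (SE) of 1.23 and 1.26. The number called depended on single libraries: it was 20 without APOE_L replicate 3, 16 without KA_L replicate 1, 68 without KA_L replicate 2 and 32 without KA_L replicate 3. It was 1, Apoe, when the 6 libraries were fitted alone.

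**Figure D1:**
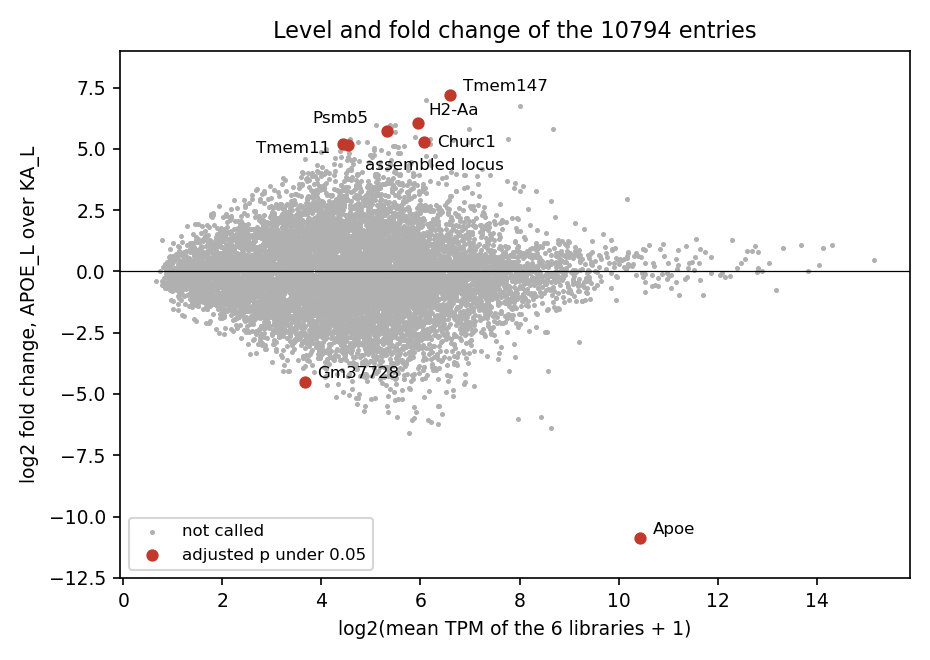
Log2 fold change of APOE_L over KA_L (vertical axis) against the log2 of the mean TPM of the 6 libraries plus 1 (horizontal axis), 1 point per entry for the 10794 entries. The 8 called entries, in red, lie far from 0, with Apoe lowest at -10.89 and Tmem147 highest at 7.21.

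Apoe, the gene that the condition is named for, was close to 0 in APOE_L. It was listed at 0.69, 0.71 and 0 TPM in APOE_L libraries, against 3084, 3262 and 1969.6 TPM in KA_L libraries, and at 161, 889 and 555 TPM in CTRL_L. No APOE_L library came near any KA_L or CTRL_L library. The log2 fold change of APOE_L over KA_L was -10.89 (SE 0.87, limma adjusted p = 1.19e-05). An exact two-sided permutation test of the mean TPM gave p = 0.1, the smallest that 3 against 3 libraries allow. Under the letter H, Apoe was at 144, 6.49 and 12.4 TPM in APOE_H, against 16636, 10438 and 8767 TPM in KA_H (log2 fold change -8.88, SE 0.87, limma adjusted p = 0.000247). Every APOE_H library was above every APOE_L library, but the difference between the 2 contrasts did not pass the test (adjusted p = 0.712).

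**Figure D2:**
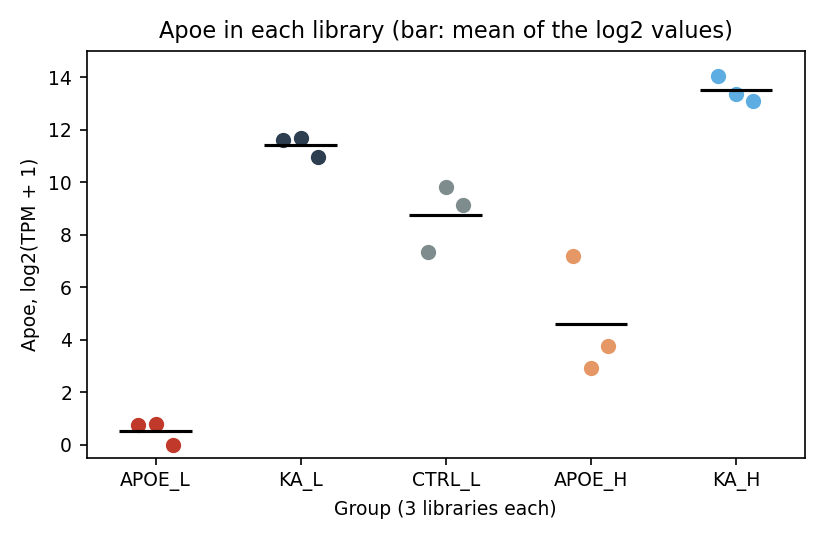
Apoe on the log2(TPM + 1) scale (vertical axis) in each of the 15 libraries by group, with bars at the mean of the 3 log2 values. The APOE_L points lie between listed values of 0 and 0.71 TPM, below every other library.

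Among the apolipoproteins and lipid carriers Apoe alone was called, of 11 tested members of a list of 15. In the list 3 were positive and 6 negative, with a median log2 fold change of -0.05, and 3 (Apoe, Apoc1 and Pltp) were lower at an unadjusted limma p under 0.05, where 4.39% of all tested entries were. Apoc1, whose gene lies beside Apoe, was listed at 0 in every APOE_L library and at 0, 26.5 and 154 TPM in KA_L. Apoc2, in the same cluster, was listed at 0 in all 6 libraries. Pltp, the phospholipid transfer protein of lipoproteins, was at 0.02, 0 and 0.02 TPM in APOE_L against 71.6, 25.1 and 0.08 TPM in KA_L (unadjusted p = 0.0209, limma adjusted p = 0.549). Apoc1, Apoc2 and Pltp were picked out after their values were seen, apart from the naming rule.

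Tmem147, which encodes an endoplasmic reticulum membrane protein associated with the translocon, had the largest positive log2 fold change among the called entries. It was at 181, 314 and 81.5 TPM in APOE_L libraries, against 0, 0.47 and 0 TPM in KA_L libraries. The log2 fold change was 7.21 (SE 0.75, limma adjusted p = 0.000307); with KA_L this close to 0 its size depends on the pseudocount, and it was between 5.07 and 9.87 over the alternatives run. Churc1, a zinc-binding protein studied in chick embryos as an activator of transcription, was at 95.8, 219 and 77.3 TPM in APOE_L against 3.92, 1.16 and 1.79 TPM in KA_L (5.26, SE 0.69, adjusted p = 0.00508). Both calls held without any 1 of the 6 libraries. They were lost when the 6 libraries were fitted alone (adjusted p = 0.571 for Tmem147 and 0.684 for Churc1) and when only the 9 L libraries were fitted.

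Psmb5, a catalytic subunit of the proteasome, was at 56.4, 87.7 and 89.0 TPM in APOE_L, against 0, 1.74 and 0.12 TPM in KA_L (log2 fold change 5.73, SE 0.93, limma adjusted p = 0.0374). Tmem11, a protein of the mitochondrial inner membrane that takes part in cristae organisation, was at 50.3, 29.8 and 43.8 TPM in APOE_L against 0.25, 0.19 and 0 TPM in KA_L (5.18, SE 0.85, adjusted p = 0.0374). H2-Aa, the alpha chain of an MHC class II molecule that presents peptides to helper T cells, was at 24.8, 52.0 and 287 TPM in APOE_L against 0.1, 0.09 and 0.13 TPM in KA_L (6.05, SE 1.02, adjusted p = 0.0468). In all 3 genes the groups were far apart, with every KA_L library under 2 TPM. These calls rest on the full set: Psmb5 lost its call without any 1 APOE_L library or without KA_L replicate 1 (adjusted p 0.0596 to 0.0745), Tmem11 without any 1 APOE_L library (0.0637 to 0.0877), and H2-Aa without APOE_L replicate 2, APOE_L replicate 3 or KA_L replicate 1 (0.0651 to 0.0791).

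These 5 named genes were called on KA_L values near 0, so their place in the other groups is given as a description only. In all 5, every CTRL_L, APOE_H and KA_H library lay above every KA_L library, so KA_L was the low group. CTRL_L libraries held 52.3, 26.6 and 104 TPM of Tmem147, 126, 238 and 615 TPM of Churc1, and 123, 32.4 and 629 TPM of H2-Aa.

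Gm37728, an unclassified transcript without an annotated coding sequence, was listed at 0 in every APOE_L library and at 13.2, 22.9 and 33.7 TPM in KA_L (limma adjusted p = 0.0374), so no fold change is given. It was also listed at 0 in every CTRL_L library. Leaving out any 1 APOE_L library ended this call (adjusted p 0.0637 to 0.0877).

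The starts of the 3 called protein-coding genes with the widest fold changes are shown, since the text turns on them; all 6 called protein-coding genes had an entry in the promoter table. The sequences are the 250 bases before the most upstream start of each gene, from RefSeq on GRCm38.p6, all on the minus strand: chr7:19699189-19699438 for Apoe (the most upstream of 3 starts), chr7:30729535-30729784 for Tmem147 and chr17:34287824-34288073 for H2-Aa. Capitals mark matches on either strand to CCAAT, TGACGTCA (a cyclic AMP response element), TATAAA or GGGCGG (a GC box), 4 motifs chosen after the sequences were seen, none overlapping another here.
Apoe: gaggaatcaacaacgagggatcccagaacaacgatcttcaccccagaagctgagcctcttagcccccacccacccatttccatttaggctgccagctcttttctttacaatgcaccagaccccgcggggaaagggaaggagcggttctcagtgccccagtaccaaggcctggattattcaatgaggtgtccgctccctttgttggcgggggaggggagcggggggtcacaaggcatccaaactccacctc
Tmem147: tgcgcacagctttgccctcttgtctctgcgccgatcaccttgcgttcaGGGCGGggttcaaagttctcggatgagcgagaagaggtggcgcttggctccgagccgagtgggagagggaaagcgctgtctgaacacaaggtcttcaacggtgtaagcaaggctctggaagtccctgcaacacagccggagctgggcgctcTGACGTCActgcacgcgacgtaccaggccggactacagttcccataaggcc
H2-Aa: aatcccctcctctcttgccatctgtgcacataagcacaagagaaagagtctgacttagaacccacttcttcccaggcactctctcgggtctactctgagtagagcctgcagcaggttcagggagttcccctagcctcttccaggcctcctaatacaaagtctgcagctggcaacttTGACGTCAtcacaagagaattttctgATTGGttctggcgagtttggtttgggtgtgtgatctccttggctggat
The Tmem147 window held 1 TGACGTCA and 1 GGGCGG, the H2-Aa window 1 TGACGTCA and 1 CCAAT, read on the opposite strand as ATTGG, and the Apoe window none of the 4. In all 6 called protein-coding genes, TGACGTCA was in 2 windows, GGGCGG in 3 (Tmem147, Churc1 and Tmem11), CCAAT in 1 and TATAAA in 0, and the Psmb5 window held none of the 4. Over 27025 windows of the same length, 1 per gene, TGACGTCA was in 1.60%, CCAAT in 34.5%, GGGCGG in 33.0% and TATAAA in 12.98%. With motifs chosen after the sequences were seen, nothing is read from these counts against that background; a match describes these letters and is not a binding site.

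Beyond the called genes, those with the smallest p values and no overlap between the groups are given as values, since none passed the adjustment (limma adjusted p 0.0607 to 0.153). Of the 10794 entries, 488 (4.52%) had every APOE_L value above every KA_L value and 757 (7.01%) the reverse. Nudt16l1, which binds a factor of DNA break repair, was at 33.6, 44.8 and 29.4 TPM in APOE_L against 0.2, 0 and 1.6 TPM in KA_L. Gmfg, an actin-remodelling protein of leukocytes, was at 190, 303 and 223 TPM in APOE_L against 1.38, 28.9 and 0.02 TPM in KA_L. Gabarapl2, a protein of autophagosome membranes, was at 223, 63.7 and 121 TPM in APOE_L against 0.26, 27.0 and 0 TPM in KA_L. In the last 2 genes KA_L replicate 2 was the highest of its group. Gm29216, a pseudogene nearly identical to part of the mitochondrial gene mt-Co1, was at 6818, 5863 and 8693 TPM in APOE_L against 2682, 3297 and 2767 TPM in KA_L. 2310039H08Rik, a protein-coding gene, was at 28.0, 22.7 and 19.3 TPM in APOE_L and listed at 0 in every KA_L library.

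In the other direction, Med12, a subunit of the Mediator kinase module, was at 0, 0.64 and 0.18 TPM in APOE_L against 113, 28.9 and 129 TPM in KA_L. Phka2, a regulatory subunit of phosphorylase kinase, was at 1.97, 0.21 and 0.75 TPM in APOE_L against 78.6, 106 and 248 TPM in KA_L. Unc45b, a myosin chaperone best known from muscle, was at 1.72, 0.09 and 2.35 TPM in APOE_L against 137, 152 and 191 TPM in KA_L. Its CTRL_L values were 0, 5.06 and 1.69 TPM, so KA_L was the high group there. Nsmce2, a SUMO ligase of genome maintenance, was at 0, 0 and 11.3 TPM in APOE_L against 177, 44.1 and 284 TPM in KA_L. Zfp704, a zinc finger gene, was at 1.69, 0.85 and 5.8 TPM in APOE_L against 249, 82.7 and 145 TPM in KA_L. Epc2, a subunit of a histone acetyltransferase complex, was at 0, 1.68 and 1.52 TPM in APOE_L against 82.6, 28.9 and 147 TPM in KA_L. Gm26759, an antisense transcript, was listed at 0 in every APOE_L library and at 21.2, 6.94 and 26.2 TPM in KA_L. Whether the authors counted by strand is not given in the sources used here, so its reads cannot be told apart from those of a gene on the other strand.

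**Figure D3:**
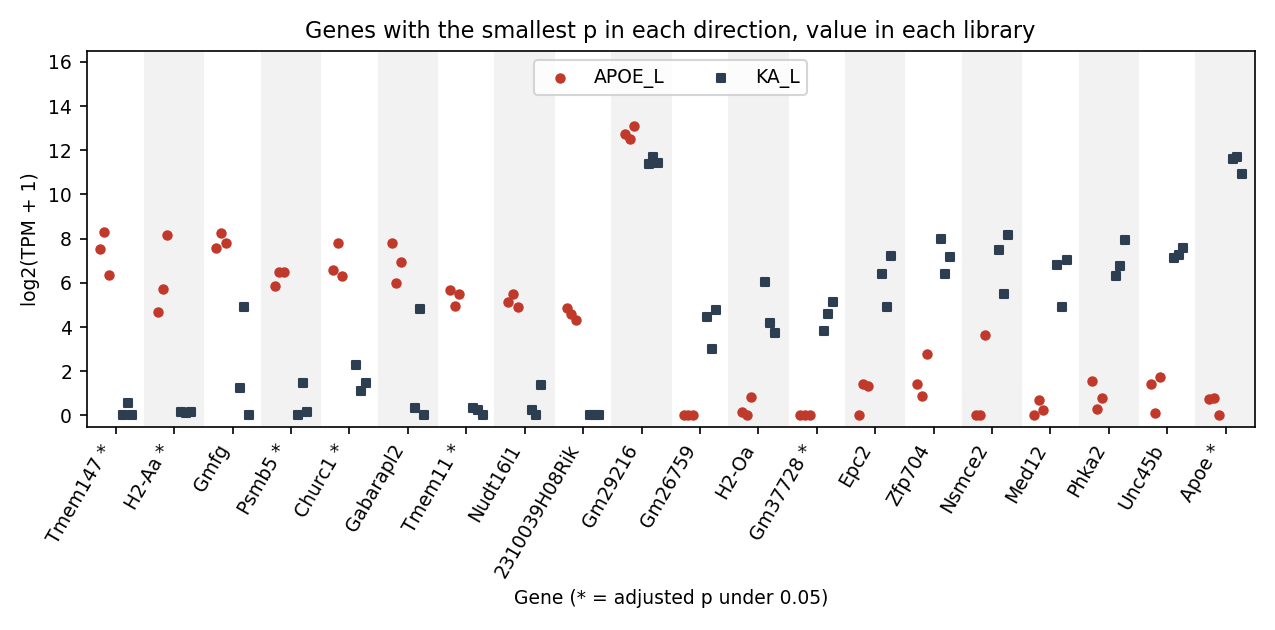
Values in each library on the log2(TPM + 1) scale (vertical axis) for the 10 genes with the smallest p in each direction, APOE_L as circles and KA_L as squares, with an asterisk at an adjusted p under 0.05. The groups do not overlap in any of the genes, by the rule that chose them, and in most of them the lower group lies near 0.

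Genes that were on in one group and off in the other were few and ran both ways. At 5 TPM or more in every APOE_L library and under 1 TPM in every KA_L library were 25 entries; the reverse held for 28. Of the 25, 7 were also at 5 TPM or more in every CTRL_L library and 7 under 1 TPM in every one. Of the 28, 4 were at 5 TPM or more in every CTRL_L library and 5 under 1 TPM. At 1 TPM or more in 3 libraries of one group and 0 of the other were 82 entries in APOE_L and 125 in KA_L, which the inclusion rule let in through 1 group. Among the 1086 entries with a mean of 100 TPM or more in both groups, 887 were less than 2-fold apart and the median size of the log2 fold change was 0.48.

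No microglial gene list had a called member, but none of these lists included Apoe, which was called. Of the 18 microglia markers none had an unadjusted limma p under 0.05 (0 of 18), 14 of 18 had a positive log2 fold change, and their median was 0.37 against -0.04 over all tested entries. P2ry12, a purinergic receptor of resting microglia, was at 2498, 3101 and 2421 TPM in APOE_L against 2051, 2039.8 and 1565 TPM in KA_L (log2 fold change 0.51, SE 0.43, limma adjusted p = 0.850). Tmem119, a microglial membrane protein, was at 104, 199.5 and 203 TPM in APOE_L against 134, 193 and 118 TPM in KA_L, with overlapping groups. Cx3cr1, the fractalkine receptor, was at 298, 289 and 285 TPM in APOE_L against 225, 305 and 340 TPM in KA_L. Of 20 disease-associated microglia genes, the set that microglia switch on around amyloid and damaged myelin, 2 had an unadjusted p under 0.05 (1 in each direction), 9 were positive and 11 negative, and the median was -0.06. Among them were Cst7, a cathepsin inhibitor, at 1398, 318 and 644 TPM in APOE_L against 331, 344 and 317 TPM in KA_L, and Spp1, osteopontin, at 528, 5.84 and 557 TPM in APOE_L against 112, 128 and 344 TPM in KA_L. Lpl, lipoprotein lipase, was at 42.2, 21.4 and 33.0 TPM in APOE_L against 51.7, 24.2 and 26.4 TPM in KA_L. In each of these 3 genes the groups overlapped.

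MHC class II genes were mostly on the higher side, and 1 of 9 tested, H2-Aa, was called, where 0.0457% of all tested entries were. Their median log2 fold change was 1.97, with 7 of 9 positive and 3 at an unadjusted limma p under 0.05, 2 higher and 1 lower. Over all tested entries 3.46% were higher and 4.39% lower at that p. H2-Ab1, the beta chain partner of H2-Aa, was at 29.7, 48.6 and 36.7 TPM in APOE_L against 40.6, 0 and 21.8 TPM in KA_L, and did not pass (limma adjusted p = 0.846). H2-Eb1 was at 0.03, 3.96 and 62.4 TPM in APOE_L and listed at 0 in every KA_L library. H2-Oa, part of a molecule that restrains peptide loading, lay the other way, at 0.1, 0 and 0.78 TPM in APOE_L against 64.5, 17.4 and 12.1 TPM in KA_L (adjusted p = 0.140). Macrophages at the borders of the brain and monocytes also express class II genes. The 12 markers of these cells summed to 424, 276 and 114 TPM in APOE_L and 166, 9.97 and 38.8 TPM in KA_L. Of the 11 tested, 6 were positive and 5 negative (median 0.37), and 0 were called. At an unadjusted limma p under 0.05, 4 were higher and 0 lower, beside 3.46% and 4.39% of all tested entries. Without overlap, 2 were higher and 0 lower, beside 4.52% and 7.01% of the 10794 entries. Only 3 of the 11 were among those 10794, with a median of 4.39. Of the 12, 0 were listed at 0 in all 6. Mrc1, the mannose receptor of border macrophages, was at 81.8, 130 and 37.4 TPM in APOE_L against 3.79, 0.38 and 0.47 TPM in KA_L (adjusted p = 0.226). Lyve1, another border macrophage marker, lay the other way by values, at 0, 0 and 0.43 TPM in APOE_L against 0, 2.58 and 25.2 TPM in KA_L. Ccr2, a monocyte receptor, was listed at 0 in every APOE_L library and at 0, 1.17 and 0.06 TPM in KA_L. Lyve1 and Ccr2 were not among the 10794 entries, and Ccr2 stands outside the naming rule. The part of these cells in the H2-Aa difference was not tested.

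No inflammatory, interferon, complement or class I gene was called. Of 14 tested chemokines 6 were positive, 1 had an unadjusted p under 0.05 (limma) and the median was close to 0. Ccl3, a chemokine of activated microglia, was at 3574, 2652 and 4807 TPM in APOE_L against 3249, 4611 and 3440.3 TPM in KA_L. Ccl2, which draws monocytes, was at 381, 315 and 769 TPM in APOE_L against 253, 508 and 717 TPM in KA_L. Of 12 tested inflammatory cytokines 5 were positive, 0 had an unadjusted p under 0.05 and the median was -0.06; Il1a was at 120, 130 and 135 TPM in APOE_L against 153, 172 and 66.1 TPM in KA_L. Of 24 interferon response genes 12 were positive and 1 had an unadjusted p under 0.05 (median 0.03). Of 18 tested complement genes 11 were positive and 0 had an unadjusted p under 0.05 (median 0.16), among them C1qb, a chain of the recognition molecule of the classical pathway, at 4692, 4076 and 4362 TPM in APOE_L against 3560.2, 4132 and 1687 TPM in KA_L. Of 21 class I and immunoproteasome genes 13 were positive and 1, B2m, had an unadjusted p under 0.05 (median 0.10). B2m, the light chain of class I molecules, was at 16320, 12140 and 25500 TPM in APOE_L against 7810, 8625 and 8137 TPM in KA_L, with no overlap (log2 fold change 1.07, SE 0.24, adjusted p = 0.153).

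Lipid genes other than Apoe had no called member either, with between 0 and 2 members per list at an unadjusted limma p under 0.05 beside those of the carriers. Of 14 tested genes of cholesterol efflux and the liver X receptor (LXR) response, 8 were positive with a median of 0.75, which was between -0.08 and 1.22 over the alternatives. Abca1, the efflux pump that loads lipid onto apolipoprotein E, was at 69.5, 99.6 and 55.4 TPM in APOE_L against 118, 129 and 65.7 TPM in KA_L, and its partner Abcg1 was at 11.3, 18.8 and 38.6 TPM in APOE_L against 103, 15.4 and 22.6 TPM in KA_L. Ch25h, which makes an oxysterol from cholesterol, was at 65.3, 34.3 and 33.2 TPM in APOE_L against 0.04, 2.24 and 0 TPM in KA_L (limma adjusted p = 0.153), and was named after its values were seen. In CTRL_L it was listed at 0 in every library. Of 18 tested genes of cholesterol synthesis 12 were positive (median 0.39), and of 17 for lipid droplets and fatty acid synthesis 7 were positive (median -0.09). Of these 17, 3 were lower without overlap and 0 higher, beside 7.01% and 4.52% of the 10794 entries. All 24 genes of that list summed to 2696 to 3393 TPM in APOE_L and 3711 to 4236 TPM in KA_L. Plin2, the coat protein of lipid droplets, was at 63.3, 0.14 and 38.4 TPM in APOE_L against 0.13, 184 and 19.3 TPM in KA_L, a spread within each group wider than the difference between them. Of 20 genes of fatty acid oxidation 9 were positive (median -0.30, between -0.33 and 1.02 over the alternatives). Of 11 lipoprotein receptors and uptake genes 8 were positive (median 0.28). Lrp1, a large endocytic receptor for apolipoprotein E, was at 207, 164 and 35.7 TPM in APOE_L against 51.0, 71.5 and 122 TPM in KA_L.

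**Figure D4:**
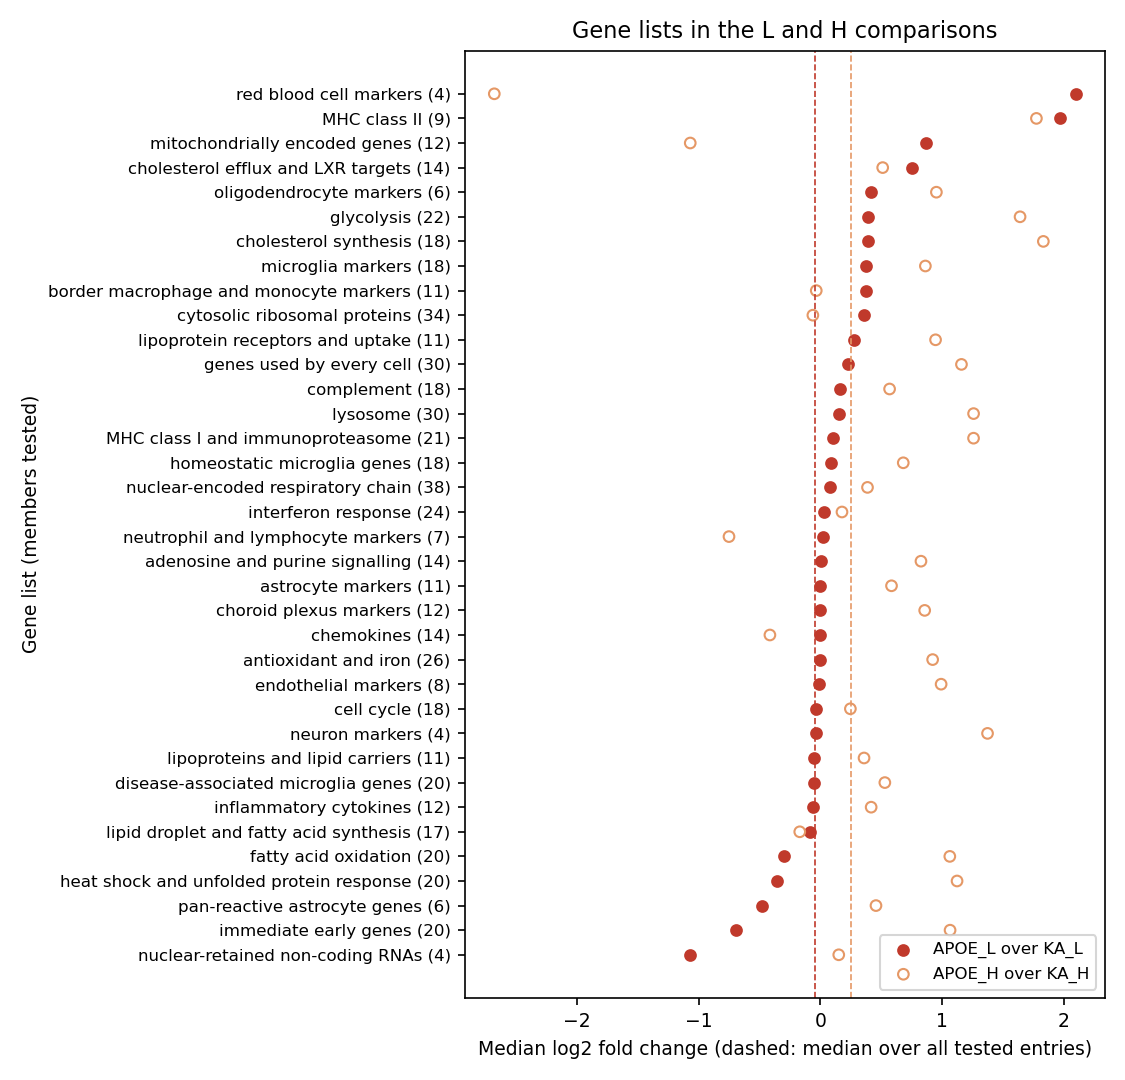
Median log2 fold change of each gene list (horizontal axis) for APOE_L over KA_L as filled circles and for APOE_H over KA_H as open circles, with the number of members tested in brackets and dashed lines at the medians over all tested entries, -0.04 for L and 0.25 for H. Many lists lie on opposite sides of 0 under the letters L and H, among them the red blood cell markers (2.10 in L, -2.68 in H), the mitochondrially encoded genes (0.86 in L, -1.07 in H), the immediate early genes (-0.69 in L, 1.07 in H) and the heat shock and unfolded protein response (-0.36 in L, 1.12 in H). The side of fatty acid oxidation (-0.30 in L, 1.06 in H) depends on the filter. Its L median was 0.46 over its members among the 10794 entries.

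Transcripts encoded by the mitochondrial genome were higher in APOE_L by values, though none was called. All 12 tested members, which encode subunits of the respiratory chain and the ATP synthase, had a positive log2 fold change (median 0.86), 10 of 12 had no overlap between the groups, where 4.52% of all 10794 entries were non-overlapping and higher, and 9 of 12 had an unadjusted p under 0.05, where 3.46% of all tested entries were higher at that p. mt-Atp6 was at 25535, 23726 and 33203 TPM in APOE_L against 14302, 14951 and 9809 TPM in KA_L (log2 fold change 1.09, SE 0.27, limma adjusted p = 0.203). mt-Nd1 was at 8082, 6321 and 9488 TPM in APOE_L against 4365, 4903 and 3926 TPM in KA_L (0.84, SE 0.27, adjusted p = 0.404). Together the mitochondrially encoded protein genes took 8.31 ± 1.36% of the total in APOE_L and 4.38 ± 0.869% in KA_L (SD, n = 3 each; exact two-sided permutation p = 0.1, the smallest possible), and 6.98 ± 2.04% in CTRL_L. The 10 most abundant entries took 17.5 to 20.7% in APOE_L and 12.4 to 13.8% in KA_L. TPM values are shares of a fixed total, so a larger share of these entries lowers the values of the rest. Among genes of the same machinery that are transcribed in the nucleus, of 38 respiratory chain genes 21 were positive and 5 had an unadjusted p under 0.05, 2 higher and 3 lower (median 0.08), and Ndufa1, a subunit of the first respiratory complex, was at 694, 331 and 949 TPM in APOE_L against 138, 314 and 471 TPM in KA_L. Of 34 cytosolic ribosomal protein genes 28 were positive and 5 had an unadjusted p under 0.05, all higher (median 0.36).

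Under the letter H the mitochondrial transcripts lay the other way. All 12 had a negative log2 fold change of APOE_H over KA_H (median -1.07). Of the 12, 2 were called there, where 0.531% of all tested entries were. The share of these transcripts in the total was 4.02 ± 1.30% in APOE_H and 8.54 ± 1.40% in KA_H (SD, n = 3 each, exact two-sided permutation p = 0.1, the smallest possible). A test of the difference between the L and H contrasts in the same limma fit called 1 of the 12, mt-Atp6 (difference 2.30, SE 0.38, adjusted p = 0.0425). It called 0.0457% of all tested entries. An unadjusted limma p under 0.05 was reached by 12 of 12, and by 8.32% of all tested entries.

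The immediate early genes, transcription factors and regulators that neurons and glia switch on within minutes of stimulation, lay lower in APOE_L by values, and none was called. All 20 tested had a negative log2 fold change (median -0.69), where 44.5% of all tested entries had a positive one; 5 had no overlap (7.01% of the 10794 were non-overlapping and lower), and 1, Jund, had an unadjusted p under 0.05. Fos was at 1266, 1729 and 1214 TPM in APOE_L against 1829.7, 2479.8 and 2084 TPM in KA_L, groups that did not overlap (log2 fold change -0.61, SE 0.32, limma adjusted p = 0.696). Jun was at 498, 420 and 286 TPM in APOE_L against 501, 593 and 740.2 TPM in KA_L, groups that came close to meeting (-0.62, SE 0.48, adjusted p = 0.833). Fosb was at 117, 111 and 72.4 TPM in APOE_L against 79.7, 103 and 372 TPM in KA_L, with overlap. Jund was at 15.7, 11.8 and 17.8 TPM in APOE_L against 49.3, 75.6 and 105 TPM in KA_L (-2.23, SE 0.70, unadjusted p = 0.00541, adjusted p = 0.386). CTRL_L libraries held 1832, 1269.6 and 1590.03 TPM of Fos, a range that overlaps both groups. In H the median of the list was 1.07, and 0 of 20 passed the limma test of the difference between the letters (8 of 20 at an unadjusted p under 0.05).

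**Figure D5:**
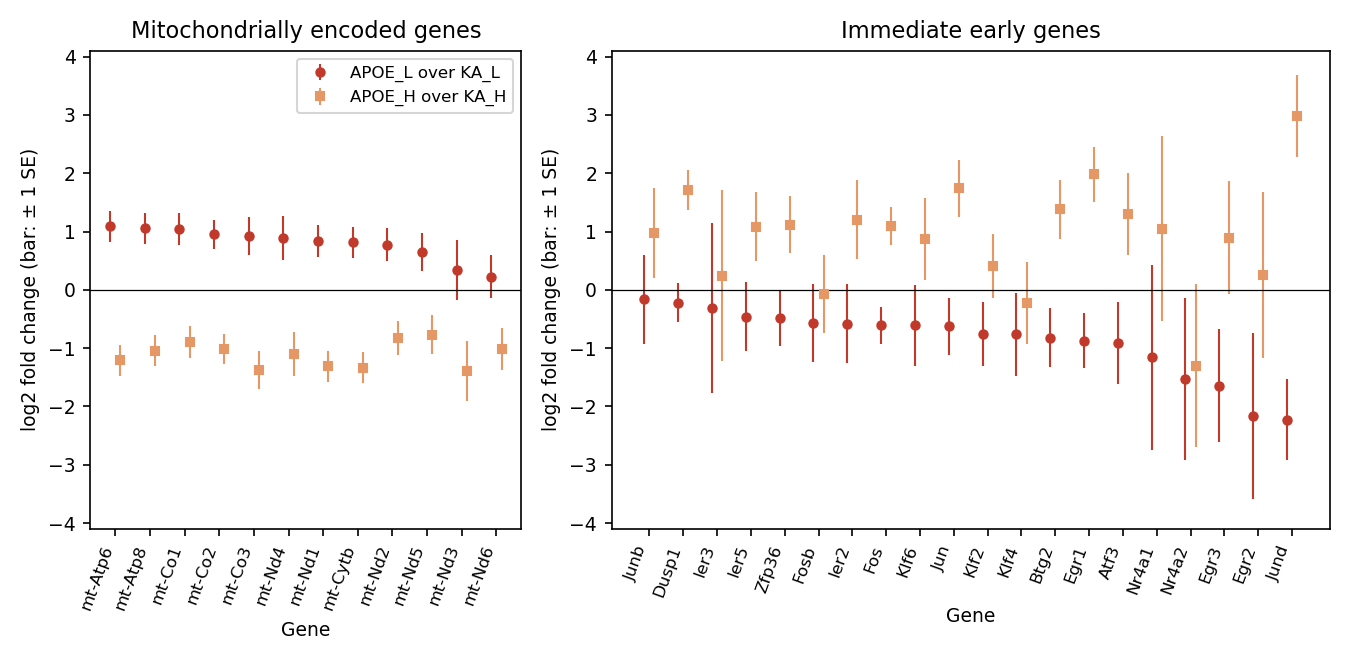
Log2 fold change with ± 1 SE (vertical axis) of each tested mitochondrially encoded gene (left) and immediate early gene (right), for APOE_L over KA_L as circles and APOE_H over KA_H as squares. All 12 mitochondrial genes are above 0 in L and below 0 in H, and all 20 immediate early genes are below 0 in L.

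Stress, nuclear RNA and energy genes had no called member. The 4 tested nuclear-retained non-coding RNAs were all negative (median -1.08), 1 of them at an unadjusted p under 0.05; Malat1, an abundant RNA of nuclear speckles, was at 7565, 6942 and 5856 TPM in APOE_L against 9016, 9914 and 16540 TPM in KA_L, with no overlap (limma adjusted p = 0.538). Of 20 tested heat shock and unfolded protein response genes 7 were positive (median -0.36) and 3 had an unadjusted p under 0.05. Hsp90aa1, a cytosolic chaperone, was at 152, 163 and 137 TPM in APOE_L against 303, 249 and 470.3 TPM in KA_L, with no overlap (log2 fold change -1.12, SE 0.42, adjusted p = 0.501). Of 22 glycolysis genes 12 were positive (median 0.39), 3 at an unadjusted p under 0.05, and of 30 lysosome genes 17 (median 0.15), 1 at that p. Lamp1, a lysosomal membrane protein, was at 189, 91.0 and 233 TPM in APOE_L against 119, 76.2 and 218 TPM in KA_L.

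Signal of other cell types varied widely between single libraries. The red blood cell markers summed to 185, 7386 and 0.1 TPM in APOE_L and 156, 81.0 and 83.7 TPM in KA_L, so their high median log2 fold change (2.10, 4 tested, 0 at an unadjusted limma p under 0.05) came with a single library, APOE_L replicate 2. The 12 choroid plexus markers summed to 232, 126 and 297 TPM in APOE_L and 57.6, 1332 and 166 TPM in KA_L, of which the thyroxine carrier Ttr made up 136, 1.46 and 190 TPM in APOE_L and 31.6, 781 and 114 TPM in KA_L. Oligodendrocyte markers summed to 77.1 to 120 TPM in APOE_L and 15.02 to 70.8 TPM in KA_L. Of the 14, 5 (Mog, Opalin, Sox10, Ugt8a and Aspa) were listed at 0 in all 6, and 1 was at 1 TPM or more in all 6. Of the 6 tested, 1 was higher in APOE_L without overlap, where 4.52% of the 10794 entries were. Endothelial markers summed to 3.21 to 73.9 TPM in APOE_L and 45.6 to 223 TPM in KA_L. Of the 12, 3 (Cldn5, Tek and Esam) were listed at 0 in all 6, and 1 was at 1 TPM or more in all 6. The mural and fibroblast markers summed to 454, 3.09 and 413 TPM in APOE_L and 641, 283 and 453 TPM in KA_L. Outside APOE_L replicate 2, nearly all of this came from a single marker gene. The neutrophil and lymphocyte markers summed to 335.5, 0.44 and 5.25 TPM in APOE_L and 102, 0.05 and 0.04 TPM in KA_L. No marker of these types was called, and their part in the differences given above was not tested. Of the tested markers, 2 of 12 for choroid plexus, 1 of 8 endothelial and 3 of 6 oligodendrocyte ones were among the 10794 entries. So were 1 of 2 mural and fibroblast, 0 of 7 neutrophil and lymphocyte and 3 of 4 red blood cell markers. The others reached 1 TPM in fewer than 3 of the 6 libraries, so their lack of a call says little.

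The same contrast under the letter H had more calls. There, 93 entries (0.531%) passed, 63 higher in APOE_H (0.36%) and 30 lower (0.171%). Across the 10794 entries the log2 fold changes under L and H were nearly unrelated (Pearson's r 0.0165, Spearman's rho 0.00841, a description across entries). The test of the difference between the 2 contrasts called 8 entries (0.0457%), of which Tmem147 and Churc1 were among those called in L. Tmem147 was at 293, 435 and 294 TPM in APOE_H against 153, 119 and 265 TPM in KA_H, and the difference of its L and H log2 fold changes was 6.23 (SE 1.07, limma adjusted p = 0.0460). Churc1 was at 231, 194 and 212 TPM in APOE_H against 251, 372 and 428 TPM in KA_H (difference 5.95, SE 0.98, adjusted p = 0.0425). B2m was at 13952, 9127 and 12169 TPM in APOE_H against 20086, 30146 and 23859 TPM in KA_H (difference 2.14, SE 0.34, adjusted p = 0.0425). H2-Aa, Psmb5, Tmem11 and Gm37728 were called in L, but their difference between the letters did not pass (adjusted p 0.139 to 0.415). This count moved with single libraries: it was 22 without KA_L replicate 2 and 0 to 2 without APOE_L replicate 1, 2 or 3, KA_L replicate 1 or 3, APOE_H replicate 1 or 3, or any 1 KA_H replicate.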

How the data were processed

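The authors deposited a table of TPM values, which are already scaled to transcript length and to the same total in each library. The aligner was STAR and the genome GRCh38, per the submitters' processing notes; GRCh38 is a human assembly, whereas 55416 of the identifiers are mouse Ensembl genes, and the quantification tool and the strand setting are not given in the sources used here. Sequencing depth cannot be read from TPM and is unknown, so counting error is not given. Symbols came from GENCODE M21 (52083 of 55416 matched).

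Tests were run in R 4.3.3 with limma 3.58.1 and a mean-variance trend, on log2(TPM + 1), with 1 mean per group over all 15 libraries (10 residual degrees of freedom) and two-sided p-values adjusted by Benjamini-Hochberg over 17505 entries. A log2 fold change on this scale understates the change of low genes. An exact permutation test (scipy 1.17.1) was added for Apoe and the mitochondrial share. Similarity of transcripts was measured with BLAST 2.17.0. Since no label says that libraries came from separate animals, p-values reflect the spread among these samples alone, and that spread may be technical. No pair of libraries held identical values, and the code was checked on simulated data.

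The entries and the 38 gene lists were chosen with earlier results of these data known, so lists are described by counts and medians, with no test. Named were Apoe, called genes with a symbol, no overlap between groups and a mean of at least 5 TPM in the higher group, the genes of smallest p up to 10 per direction, and in each list called genes and the first 3 tested. Alternatives were another pseudocount, filter, scaling, set of libraries, no trend, a replicate block and leaving out each library.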

Additional observations from a re-analysis of the deposited data

Results flagged for a closer look

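The log2 fold change of APOE over KA differed between the letters L and H for 8 entries by the limma test of that difference (0.0457% of 17505; 1456 entries, 8.32%, at an unadjusted p under 0.05; adjusted p 0.0425 to 0.0460 for the 8). For these entries, chosen by that test, the log2 fold change was above 0 in L for 8 of 8 and under 0 in H for 7 of 8. In 7 of 8 the APOE_L libraries lay above the KA_L libraries without overlap, and in 7 of 8 the APOE_H libraries lay below the KA_H libraries without overlap, which the choice by that test favours. The differences, L minus H, were 6.22666 for Tmem147 and 5.94919 for Churc1, both called in L. B2m differed by 2.14154 and mt-Atp6 by 2.29768. Fcer1g, a signalling chain of Fc receptors, differed by 2.16276; it was at 3989, 4018 and 4258 TPM in APOE_L against 1837, 3197 and 1796 TPM in KA_L, and at 3127, 2628 and 2344 TPM in APOE_H against 5171, 8129 and 6369 TPM in KA_H. Eif4g3, a translation initiation factor, differed by 1.59127; its log2 fold change was 0.01 in L and -1.58 in H, so that difference lies in H. Gm29216 differed by 2.29815 and Gm28437 by 2.15492. These 2 pseudogenes are near copies of mitochondrial genes, Gm28437 being identical to mt-Co3 over 783 bases and Gm29216 99.8% identical to mt-Co1 over 483 bases, so their reads cannot be told apart from those of mt-Co3 and mt-Co1.

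Beside these, the choroid plexus markers summed to 126 to 297 TPM in APOE_L, 57.6 to 1332 TPM in KA_L, 38904 to 60034 TPM in APOE_H and 33756 to 42044 TPM in KA_H. In CTRL_L these markers summed to 140, 39974 and 24485 TPM, so the untreated libraries were not alike in them. Their part in the differences between L and H, and in those from CTRL_L, was not tested.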

How the results depend on the processing

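The call of Apoe held under all 17 alternatives that could test it (log2 fold change -12.72 to -8.96), and none of the other 19 genes named for a call or for the smallest p values changed direction. Of the other 46 tested genes named in the text, none called, 31 had the opposite direction under no alternative and 15 (Abcg1, Actb, Ccl2, Ccl3, Cx3cr1, Eif4g3, Fosb, Il1a, Lamp1, Lpl, Plin2, Spp1, Syp, Tmem119 and Ttr) had it under at least 1; 1, Apoc1, was called under 1, without KA_L replicate 1. The 31 include Apoc2 and Cldn5, listed at 0 in all 6 libraries, which had no direction to reverse. They also include Mki67, whose only value above 0 was 0.02 TPM. Churc1 and Tmem147 lost their call under 2 of 17 alternatives, and Gm37728, H2-Aa, Psmb5 and Tmem11 under 8 or 9. Of 8 entries called, the number became 5 with a pseudocount of 5, 13 with no filter on low values (4 of the 8 among them), 1 with the 6 libraries alone and 1 with the 9 L libraries. It became 0 among entries with a mean of 5 TPM or more in both groups (520 at an unadjusted p under 0.05, limma), a filter that leaves out all 8, and 0 at 100 TPM or more (76 at that p), a filter added after seeing the data. Leaving out 1 library gave 8 to 68. The test of L against H, with 8 calls, gave 22 with upper-quartile scaling, 0 with quantile normalization (the cause was not tested), and 0 to 22 without 1 library.

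APOE_L and KA_L share replicate numbers. The deviations of same-numbered libraries correlated at only -0.02 to 0.02, and not every library correlated best with its own number. Values this near 0, from libraries with such scatter, cannot show or exclude pairing, which the labels do not state. With a replicate block, 4 entries were called in L and 1 in the difference between L and H.

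Both scalings moved the median of all tested entries by under 0.1 in L, but some list medians moved further. With upper-quartile scaling it went from 0.37 to 0.63 for microglia markers and from 0.23 to 0.49 for genes used by every cell. With quantile normalization it went from 0.36 to 0.63 for ribosomal protein genes and from 0.86 to 0.66 for mitochondrially encoded genes. The list medians of mitochondrially encoded (0.66 to 1.12), immediate early (-0.94 to -0.43), MHC class II (1.22 to 2.24) and ribosomal protein genes (0.21 to 0.63) kept their sign under all 18 alternatives. Several other list medians changed sign. The sign held under 13 of 18 for fatty acid oxidation, disease-associated microglia and adenosine and purine genes. It held under 14 for interferon response and inflammatory cytokine genes, and under 15 for nuclear-encoded respiratory chain genes. The median ran from -0.04 to 4.39 for border macrophage and monocyte markers and from -1.32 to 0 for cell cycle genes. Depth is unknown, and the scatter of low values within groups limits what 3 libraries can show.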

Other observations

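Several further groups of genes held no called entry in APOE_L against KA_L and are given as values. Of 14 tested genes of adenosine and purine signalling 8 were positive and 2 had an unadjusted limma p under 0.05, both lower (median log2 fold change 0.00). Adora3, an adenosine receptor, was at 0.33, 0.06 and 22.97 TPM in APOE_L against 0.58, 17.0 and 61.1 TPM in KA_L, with overlap. Of 26 antioxidant and iron genes 13 were positive and 3 had an unadjusted p under 0.05, 1 higher and 2 lower (median 0.00). Hmox1, which breaks down haem, was at 0, 0 and 0.91 TPM in APOE_L against 12.8, 3.36 and 21.1 TPM in KA_L (limma adjusted p = 0.532), groups that did not overlap.

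Of 18 homeostatic microglia genes 10 were positive and 0 had an unadjusted limma p under 0.05 (median 0.09). Of 18 tested cell cycle genes 6 were positive and 1 had an unadjusted p under 0.05, on the lower side (median -0.04). Only 4 of the 18 were among the 10794 entries, with a median of -0.88. The 24 genes of the list summed to 75.9 to 171 TPM in APOE_L and 243 to 322 TPM in KA_L. The proliferation marker Mki67 was listed at 0.02, 0 and 0 TPM in APOE_L and at 0 in every KA_L library. Of 30 genes used by every cell 19 were positive, 1 was higher and 1 lower at an unadjusted p under 0.05 (median 0.23). Actb was at 313, 619 and 433 TPM in APOE_L against 152, 415 and 1019.97 TPM in KA_L, a wide spread within KA_L. Of 6 tested pan-reactive astrocyte genes 2 were positive and 1 had an unadjusted p under 0.05, on the higher side (median -0.48); none of the 10 oligodendrocyte precursor markers reached the level for testing.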
